A study of Mus musculus with 12 samples.

Results

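The genes described here mark enterocytes at the tip of the intestinal villus, and are Ada, Nt5e, Slc28a2, Creb3l3, Enpp3 and Klf4. They were taken by name, with earlier results of these data known, and each symbol was tied to its Ensembl identifier through the GENCODE M21 annotation. They are 6 of the 46078 genes in the count files, and all 6 were among the 15823 genes that passed the filter on low counts. The libraries came from male C57BL/6 mice, with no transgene or deletion named in the labels, and the RNA was taken from scrapings of the proximal ileal epithelium. The 4 groups of 3 libraries were sesame oil vehicle and TCDD at 3, 10 and 30 µg/kg in the same oil, given by oral gavage at 4-day intervals from 28 days of age, with an end age of 56 days. TCDD, a dioxin, acts through the aryl hydrocarbon receptor (AhR). The study tested whether a disturbed metabolism of propionyl-CoA contributes to its toxicity in the liver. As a part of this it examined intestinal genes for the uptake of cobalamin. The study counts its intestinal groups in mice, as many as the libraries here, but the labels tie no library to a mouse, so the p-values measure the spread between libraries of a group. The labels number no replicates, so the numbers used below follow accession order and name a library only.

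Enterocytes are born in the crypt, climb the villus over a few days and are shed at its tip, and their gene programme changes along the way. Antimicrobial genes are described at the villus base, transporters for sugars, peptides and amino acids along the middle, and genes for lipoprotein assembly, cell adhesion and purine handling toward the tip. Bone morphogenetic protein (BMP) signalling rises in the same direction. Extracellular ATP is broken down at the cell surface to AMP, AMP to adenosine, and adenosine to inosine, and the nucleosides are then taken up. Of the genes described here, Enpp3 encodes an ectoenzyme that cleaves extracellular nucleotides, Nt5e encodes CD73, the ectoenzyme that turns AMP into adenosine, and Ada encodes adenosine deaminase, which turns adenosine into inosine. Slc28a2 encodes a sodium-coupled carrier that takes up purine nucleosides. Klf4 encodes a zinc-finger transcription factor of differentiated epithelium that is also needed by goblet cells, and Creb3l3 encodes CREB-H, a transcription factor held in the endoplasmic reticulum membrane that acts on lipid genes.

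The promoters of 4 of these genes are shown because they carry, or lack, the short sequence at which AhR with its partner binds DNA, and because 3 of the genes, Nt5e, Enpp3 and Creb3l3, moved with the clock score described below. Sequences are from RefSeq on GRCm38.p6, which held all 6 genes, and each window runs 5′ to 3′ on the gene's own strand from 250 bases before the transcription start to 50 bases after. The start used lies 6628 bases downstream of the 5′ end of the GENCODE locus for Enpp3 and 412 bases downstream for Nt5e, so windows at those outer ends were not searched. Capitals mark the AhR core, GCGTG on either strand.
Ada promoter, chr2:163750190-163750489, minus strand: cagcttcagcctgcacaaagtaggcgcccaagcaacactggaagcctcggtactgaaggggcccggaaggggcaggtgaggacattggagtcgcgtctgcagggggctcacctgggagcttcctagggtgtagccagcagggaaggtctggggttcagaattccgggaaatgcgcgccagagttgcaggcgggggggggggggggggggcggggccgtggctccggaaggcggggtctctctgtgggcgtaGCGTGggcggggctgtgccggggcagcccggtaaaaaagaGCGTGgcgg
Nt5e promoter, chr9:88327359-88327658, plus strand: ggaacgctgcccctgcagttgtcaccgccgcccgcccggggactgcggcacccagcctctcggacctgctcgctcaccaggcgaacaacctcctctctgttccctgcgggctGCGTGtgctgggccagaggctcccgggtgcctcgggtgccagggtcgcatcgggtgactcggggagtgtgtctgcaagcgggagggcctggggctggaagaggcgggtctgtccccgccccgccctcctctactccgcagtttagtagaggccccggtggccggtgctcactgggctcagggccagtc
Enpp3 promoter, chr10:24836146-24836445, minus strand: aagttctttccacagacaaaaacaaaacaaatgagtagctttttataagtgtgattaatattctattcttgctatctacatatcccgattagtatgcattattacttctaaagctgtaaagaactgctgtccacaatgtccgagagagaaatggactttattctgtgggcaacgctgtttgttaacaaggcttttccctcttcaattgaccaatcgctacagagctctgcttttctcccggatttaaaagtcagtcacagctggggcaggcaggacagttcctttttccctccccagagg
Creb3l3 promoter, chr10:81098823-81099122, minus strand: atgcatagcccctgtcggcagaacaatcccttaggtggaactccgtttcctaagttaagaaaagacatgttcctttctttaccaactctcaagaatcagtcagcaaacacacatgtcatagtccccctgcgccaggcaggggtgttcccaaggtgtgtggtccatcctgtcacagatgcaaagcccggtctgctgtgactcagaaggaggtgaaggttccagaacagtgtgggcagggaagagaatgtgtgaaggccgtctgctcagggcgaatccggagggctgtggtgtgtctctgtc
The AhR core was found 2 times in the Ada window, both after the start, and 1 time in that of Nt5e. It was not in the windows of Enpp3, Slc28a2 and Klf4, nor in either window listed for Creb3l3. Of 32851 promoter windows of the same length, 32.4% held it at least once. The clock motifs searched beside it were the E-box, CACGTG, and the D-box, TTATGTAA on either strand, neither of which contains the AhR core. The E-box stood 1 time in the Klf4 window and in 7.15% of all windows, and the D-box stood in none of the members' windows and in 0.938% of all. A match is a description of the letters, not of a bound site.

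Between 11695887 and 22180274 reads per library were assigned to genes, so that 3 counts, the floor used for a gene not detected, came to 0.139 to 0.266 CPM, the count scaled to the size of the library. The label of epithelium was checked with 6 enterocyte markers, whose summed level was 8731 to 12416 CPM over the libraries. The label of ileum was checked with the bile acid genes of the distal small intestine. Fabp6, the ileal bile acid binding protein, was between 22.9 and 38.3 CPM in the 3 libraries of 3 µg/kg but at most 0.306 CPM in the other 9. Slc10a2, the ileal bile acid transporter, was 5.45 to 16.4 CPM at 3 µg/kg and at most 2.68 elsewhere, whereas Slc51a was 99.0 to 162 CPM in all 12. The libraries of 3 µg/kg thus stood apart in Fabp6 and Slc10a2, and only there did these 2 genes bear out the label. Dose and position along the intestine cannot be told apart for that group, so results are also given without it. In the other 9 libraries these 2 genes were too low to place the tissue. Whether position differed between vehicle, 10 and 30 µg/kg was not tested. The libraries also fell apart by clock genes, inside every dose. A clock score was computed as the mean centred log2 CPM of 7 genes that peak with Dbp minus that of 4 genes that peak with Arntl, and its values lay either between 1.56 and 2.99 or between -3.17 and -1.61, with 6 libraries on each side. Scores above 0 belonged to vehicle replicates 2 and 3, to replicate 1 in each of the groups given 3 and 10 µg/kg, and to replicates 1 and 2 in the group given 30 µg/kg. The treatment itself was visible in AhR targets. Cyp1a1, the classic target that encodes a xenobiotic oxidase, was 18.9 to 27.5 CPM in vehicle and 2605 to 3247 CPM at 30 µg/kg.

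All 6 villus tip genes were well expressed in every library, with at least 973 counts for the least abundant. On the scale of CPM per kilobase of annotated exon, which allows genes to be compared, vehicle libraries held 203 ± 33.99 for Ada, 162 ± 26.2 for Creb3l3, 126 ± 25.0 for Klf4, 107 ± 6.66 for Enpp3, 50.7 ± 4.36 for Slc28a2 and 10.4 ± 2.21 for Nt5e (SD, n = 3). In this order the libraries of each neighbouring pair overlapped from Ada down to Enpp3, so these neighbours did not separate beyond their spread. Slc28a2 lay below all 4, and Nt5e below Slc28a2, with no overlap of libraries. Ada ranked 148 and Nt5e 3595 among the 15747 tested genes that had an exon length.

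**Figure D1:**
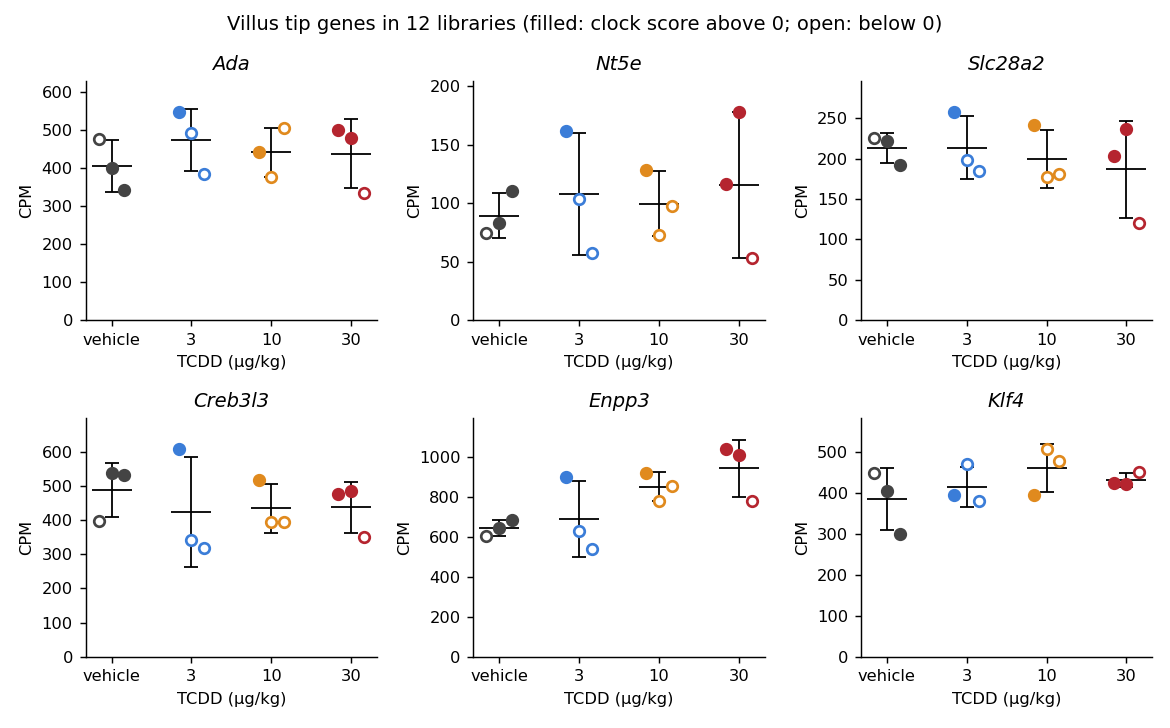
CPM of each villus tip gene (vertical axis, from 0) in the 12 libraries by dose of TCDD in µg/kg (horizontal axis), with the group mean and SD (n = 3) as horizontal and vertical lines, and filled points for libraries with a clock score above 0. Enpp3 at 10 and 30 µg/kg lies above all vehicle libraries, while the groups of the other 5 genes overlap at each dose.

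No villus tip gene was called at any dose against vehicle. Calls needed a change of 1.5-fold or more and an adjusted p below 0.05, from the quasi-likelihood test of edgeR with Benjamini-Hochberg adjustment over all genes tested. At 3 µg/kg, 0 of 6 were called, as against 0.228% of all genes tested. At 10 µg/kg, 0 of 6 were called, against 0.613%, and at 30 µg/kg 0 of 6, against 3.97%. The count was also 0 between 10 and 3 µg/kg, where 0.158% of all genes were called, and between 30 and 10 µg/kg, where 2.77% were. With shares as low as these, a count of 0 among 6 genes is close to what the background gives. At an unadjusted p under 0.05 the lowest dose gave 0, the higher doses 1 each, both times Enpp3, and the remaining pairs 0. Over all 15823 genes tested, 1800, 2511 and 3423 had such a p at 3, 10 and 30 µg/kg against vehicle. Between 10 and 3 µg/kg 522 did, and between 30 and 10 µg/kg 3327. A count of 1 among 6 genes is close to what this background gives at the higher doses. DESeq2 called 0 of 6 in each of these comparisons. In order of dose, the log2 changes of the 6 genes had medians of 0.10, 0.14 and 0.14, and those of all genes tested 0.0017, -0.0096 and -0.016. The doses were compared with the same vehicle libraries, so these values are not independent of each other. In bulk RNA, fewer enterocytes at the tip and less RNA of a gene in each such cell cannot be told apart.

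Enpp3, the nucleotide-cleaving ectoenzyme, is at chr10:24772406-24842823 on the minus strand of GRCm38. It was 604, 644 and 684 CPM in vehicle replicates 1 to 3, and 902, 629 and 539 CPM at 3 µg/kg. It was 921, 777 and 855 CPM at 10 µg/kg, and 1039.8, 1008 and 779 CPM at 30 µg/kg. The libraries of 10 and 30 µg/kg all lay above every vehicle library, whereas those of 3 µg/kg spanned the vehicle range. Such a lack of overlap was found for 22.9% of all genes tested at 10 µg/kg and for 26.8% at 30 µg/kg. In order of dose, the log2 change of Enpp3 was 0.10 ± 0.17, 0.40 ± 0.17 and 0.55 ± 0.17 (SE), with edgeR adjusted p of 0.865, 0.282 and 0.0832. At 30 µg/kg the 95% interval of the fold ran from 1.13 to 1.89. The edgeR slope over the dose rank gave a change of 0.58 ± 0.16 over the range on the log2 scale, with an adjusted p of 0.049. This is a 1.499-fold change, just under the 1.5-fold limit, so Enpp3 was not counted as called.

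For the dose trend 0 of 6 villus tip genes were called and 3.29% of all genes, and for any difference between the 4 groups 0 of 6 and 6.78%. In both, edgeR gave 1 of 6, Enpp3, an unadjusted p under 0.05, and DESeq2 called 0 of 6. Over all 15823 genes tested, 3116 had such a p in edgeR for the trend and 3792 for any difference. The exact Jonckheere-Terpstra test of the trend in Enpp3, over all arrangements of the 12 libraries and two-sided, gave p = 0.016 and 0.187 after adjustment over all genes. Without the 3 µg/kg libraries, a setting chosen after seeing the data, the change of Enpp3 at 30 µg/kg was 0.56 ± 0.12 on the log2 scale with an edgeR adjusted p of 0.0188, and stayed under 1.5-fold. With the clock score as a covariate it was 0.55 ± 0.12 with an edgeR adjusted p of 0.0073 at 30 µg/kg, and the change over the dose rank, 0.60 ± 0.12, was called. Enpp3 is also a surface marker of basophils and mast cells. Of 5 markers of those cells 2 passed the filter on low counts, and the summed level of the 5 was at most 11.3 CPM in any library and at most 2.30 CPM at 30 µg/kg. The highest value in any library was 0.645 CPM among Cpa3, Fcer1a and Ms4a2, 8.39 CPM for Mcpt1 and 2.46 CPM for Mcpt2. RNA of genes of another cell type moved with dose. The Paneth list summed to 661 to 1002 CPM in vehicle and 2074 to 2793 CPM at 30 µg/kg, with 5 of 6 genes called higher. Of all genes tested, 3.97% were called there in either direction. Reads outside any gene were 25.0% to 25.4% at 30 µg/kg and 28.0% to 30.1% elsewhere. The part of these shifts in the Enpp3 values was not tested.

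**Figure D2:**
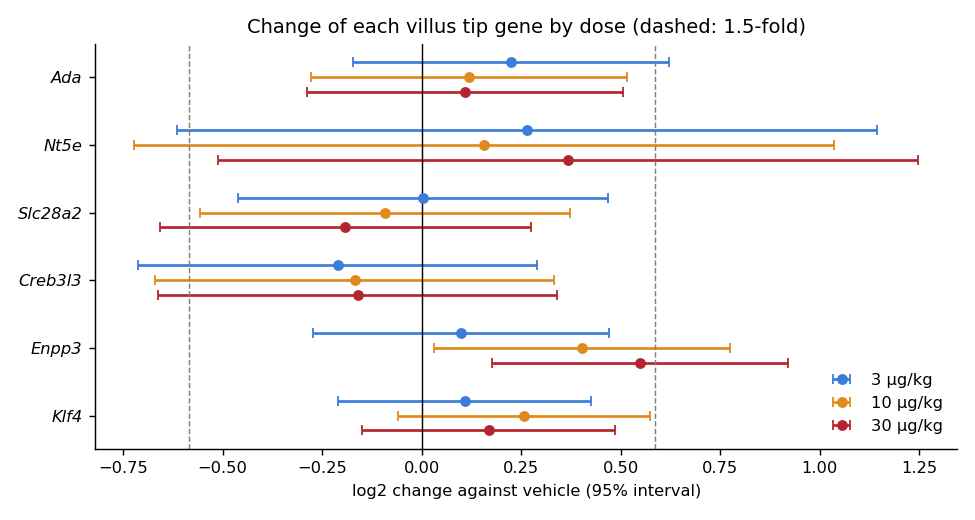
The log2 change against vehicle (horizontal axis) of each villus tip gene at 3, 10 and 30 µg/kg, with 95% intervals from the edgeR fit of 12 libraries and dashed lines at 1.5-fold. The intervals of Enpp3 at 10 and 30 µg/kg lie above 0, and the other 16 intervals include 0.

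Nt5e, which makes the adenosine, is at chr9:88327197-88372092 on the plus strand. It was 74.1, 83.4 and 111 CPM in vehicle, and 162, 103 and 57.5 CPM at 3 µg/kg. It was 129, 72.8 and 97.5 CPM at 10 µg/kg, and 116, 178 and 53.2 CPM at 30 µg/kg. All 4 groups overlapped, and the libraries of 30 µg/kg held both the highest and the lowest value of the 12. At 30 µg/kg Nt5e differed from vehicle by 0.37 ± 0.41 (SE) on the log2 scale, with an edgeR adjusted p of 0.649. The 95% interval of the fold was 0.702 to 2.37, which spans a fall as well as a rise of more than 2-fold. At 3 and 10 µg/kg the log2 changes were 0.26 ± 0.41 and 0.16 ± 0.41. Nt5e is also made by lymphocytes and stromal cells. The summed T cell list was 170 to 202 CPM in vehicle and 210 to 251 CPM at 30 µg/kg. Of its 5 tested genes 1, Cd3g, was called higher there, against 3.97% of all genes in either direction. The log2 changes of the 5 ran from -0.26 to 0.71, with a median of 0.29, so they did not all rise. The fibroblast list was 72.5 to 137 CPM in vehicle and 60.4 to 91.2 CPM at 30 µg/kg. The part of these cells in the Nt5e values was not tested.

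Ada, which removes the adenosine, is at chr2:163726584-163750239 on the minus strand. It was 477, 401 and 341 CPM in vehicle, and 547, 491 and 385 CPM at 3 µg/kg. It was 443, 376 and 505 CPM at 10 µg/kg, and 501, 480.1 and 334 CPM at 30 µg/kg. The groups overlapped throughout, and the lowest library of all was replicate 3 of 30 µg/kg. The log2 changes were 0.22 ± 0.18, 0.12 ± 0.18 and 0.11 ± 0.18 (SE) in order of dose, with edgeR adjusted p of 0.676, 0.789 and 0.783. At 30 µg/kg the 95% interval of the fold was 0.819 to 1.42.

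Slc28a2, the nucleoside carrier, is at chr2:122426477-122461137 on the plus strand. It was 226, 222 and 192 CPM in vehicle, and 258, 199 and 184 CPM at 3 µg/kg. It was 242, 177 and 181 CPM at 10 µg/kg, and 204, 237 and 120.3 CPM at 30 µg/kg. The groups overlapped at each dose, and replicate 3 of 30 µg/kg lay below the other 11 libraries. In order of dose, the log2 change was 0.0027 ± 0.21, -0.092 ± 0.21 and -0.19 ± 0.21 (SE), with edgeR adjusted p of 0.998, 0.868 and 0.657. At 30 µg/kg the 95% interval of the fold was 0.634 to 1.21. Counts of this gene carry a limit, because 35.4% of the 50-base stretches of its annotated transcripts also occur in Gm14085, its neighbour and near-copy, and Gm14086, an unprocessed pseudogene, overlaps it on the same strand. Reads that align to more than 1 place were left out of the gene counts, and they were 36.2% to 38.8% of all at 30 µg/kg and 31.4% to 34.6% elsewhere. Gm14085 itself was 6.34 to 15.2 CPM. The other genes shared at most 0.865% of such stretches with another gene.

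Creb3l3, the lipid regulator, is at chr10:81084324-81098874 on the minus strand. It was 398, 536 and 532 CPM in vehicle, and 608, 342 and 317 CPM at 3 µg/kg. It was 518, 394 and 393 CPM at 10 µg/kg, and 476, 484 and 352 CPM at 30 µg/kg. The groups overlapped at each dose, and libraries inside a dose differed more than the dose means did. The log2 changes were -0.21 ± 0.23, -0.17 ± 0.23 and -0.16 ± 0.23 (SE) in order of dose, with edgeR adjusted p of 0.771, 0.76 and 0.738. At 30 µg/kg the 95% interval of the fold was 0.632 to 1.27.

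Klf4, the epithelial differentiation factor, is at chr4:55527143-55532466 on the minus strand. It was 449, 404 and 300.1 CPM in vehicle, and 394, 469 and 379 CPM at 3 µg/kg. It was 394, 507 and 477 CPM at 10 µg/kg, and 423, 421 and 451 CPM at 30 µg/kg. The 3 libraries of 30 µg/kg lay close together near the top of the vehicle range, and replicate 3 lay just above it. The log2 changes were 0.11 ± 0.15, 0.26 ± 0.15 and 0.17 ± 0.15 (SE) in order of dose, with edgeR adjusted p of 0.823, 0.404 and 0.546. At 30 µg/kg the 95% interval of the fold was 0.902 to 1.4. Goblet cells also make Klf4, and 3 of 7 goblet genes were called higher at 30 µg/kg, against 3.97% of all genes in either direction. These were Agr2, Tff3 and Zg16, with log2 changes of 0.82, 0.90 and 0.84. The summed goblet list was 12691 to 16598 CPM in vehicle and 16237 to 17696 CPM at 30 µg/kg. The part of goblet cells in the Klf4 values was not tested.

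None of the other villus genes listed was called at 30 µg/kg. At that dose 3423 of the 15823 genes tested had an unadjusted p under 0.05 in edgeR. This is the background for the counts at that p here and in the lists below. Of 9 further genes of the upper villus, 0 were called at 30 µg/kg by edgeR or DESeq2, with 1 at an unadjusted p under 0.05 and a median of 0.16 on the log2 scale. Krt20, the keratin of shed and upper villus cells, was 1700 to 1869 CPM in vehicle and 1974 to 2418 CPM at 30 µg/kg, with a log2 change of 0.33 ± 0.11 (SE) and an edgeR adjusted p of 0.111. Apoa4, an apolipoprotein of the upper villus and a target of CREB-H, was 4872 to 6773 CPM in vehicle and 3775 to 6121 CPM at 30 µg/kg. Of 10 genes of the middle villus, all but the transcription factor Maf being nutrient transporters, 0 were called at 30 µg/kg by either tool and 0 had an unadjusted p under 0.05, with a median of 0.039. Of 6 genes of the villus base, 0 were called by either tool, 1 had an unadjusted p under 0.05, and the median was -0.064. That gene was Nlrp6, an innate immune sensor, at 0.45 ± 0.076 with an edgeR adjusted p of 0.0039, a change below 1.5-fold.

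Among 24 tested genes of purine handling, 1 was called lower and 0 higher at 30 µg/kg, with a median log2 change of -0.015, and DESeq2 called 3. That is 1 of 24, at a background of 3.97% of all genes. The gene was Akp3, an alkaline phosphatase of the intestinal brush border, which dephosphorylates nucleotides among other substrates. It was 19.3 to 25.6 CPM in vehicle and 1.42 to 2.19 CPM at 30 µg/kg, which is -3.70 ± 0.82 (SE) on the log2 scale, with an edgeR adjusted p of 0.0193. It was 0.583 to 8.74 CPM at 3 µg/kg and 0.791 to 5.69 CPM at 10 µg/kg, below every vehicle library, a lack of overlap found in either direction for 15.4% and 22.9% of all genes. Alpi, the more abundant intestinal phosphatase, was 854 to 969.9 CPM in vehicle and 741 to 1014 CPM at 30 µg/kg. Adora2b, a receptor for adenosine, was 8.51 to 15.2 CPM in vehicle and 2.57 to 7.55 CPM at 30 µg/kg, and was called lower over the dose rank, at -1.48 ± 0.40 with an edgeR adjusted p of 0.0465. It was 7.64 to 19.2 CPM at 3 µg/kg and 5.51 to 9.78 CPM at 10 µg/kg. Adora2b was also higher at a higher clock score, by 0.18 ± 0.033 (SE) on the log2 scale per unit, with an edgeR adjusted p of 0.0024. For the trend 2 of the 24 genes were called, both lower, at a background of 3.29%.

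Of the 4 paralogs of Creb3l3, Creb3l1, a membrane-bound factor of secretory cells, was called higher at 30 µg/kg, and the other 3 were not called. It was 17.1 to 18.4 CPM in vehicle and 29.6 to 31.0 CPM at 30 µg/kg, which is 0.76 ± 0.11 (SE) on the log2 scale, with an edgeR adjusted p of 0.0017. Of 5 genes described as CREB-H targets, 3 passed the filter, and 0 were called at 30 µg/kg by either tool, with 0 at an unadjusted p under 0.05 and a median of -0.028. Fgf21 and Apoa5 were at most 0.315 CPM in any library. Of 8 paralogs of Klf4, 0 were called by either tool, with a median of 0.19 on the log2 scale and 1 at an unadjusted p under 0.05. That was Klf5, the proliferative counterpart of Klf4 in the crypt, at 307 to 348 CPM in vehicle and 446 to 482 CPM at 30 µg/kg. Its log2 change was 0.51 ± 0.094 (SE) with an edgeR adjusted p of 0.0061, below 1.5-fold. Of 5 paralogs of Enpp3 tested, 0 were called and 0 had an unadjusted p under 0.05 at 30 µg/kg, with DESeq2 also at 0 and a median of 0.062. Of 15 genes of the BMP pathway, 0 were called by either tool, 4 had an unadjusted p under 0.05, and the median was -0.09. Of 9 immediate early genes, 0 were called by either tool, 2 had an unadjusted p under 0.05, and the median was 0.40.

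The remaining lists give the setting of these values at 30 µg/kg, where 3.97% of all genes tested were called. Of 6 AhR targets, 4 were called higher, namely Cyp1a1, Cyp1b1, Ahrr, the AhR repressor, and Tiparp, with log2 changes of 7.01, 5.53, 3.85 and 1.38. At 10 µg/kg 3 of the 6 were called higher, all but Tiparp of those 4, and at 3 µg/kg Cyp1a2 was called lower, at 0.787 to 2.31 CPM in vehicle with no count at 3 µg/kg. The 5 Paneth genes called higher were Lyz1, Defa24, Mmp7, Itln1 and Ang4, products of crypt-base secretory cells, with log2 changes of 1.30 to 2.33. By edgeR, 0 were called among 6 enterocyte markers, 4 ileal markers, 5 crypt markers, 5 B and plasma cell markers, 2 mast and basophil markers, 5 fibroblast markers, 5 smooth muscle markers, 3 endothelial markers and 11 clock genes. At an unadjusted p under 0.05 these gave 0, 0, 2, 4, 1, 0, 0, 0 and 0 genes, and DESeq2 called 2 of the B and plasma cell markers and none of the rest. Over all 15823 genes tested, 3423 had such an unadjusted p.

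**Figure D3:**
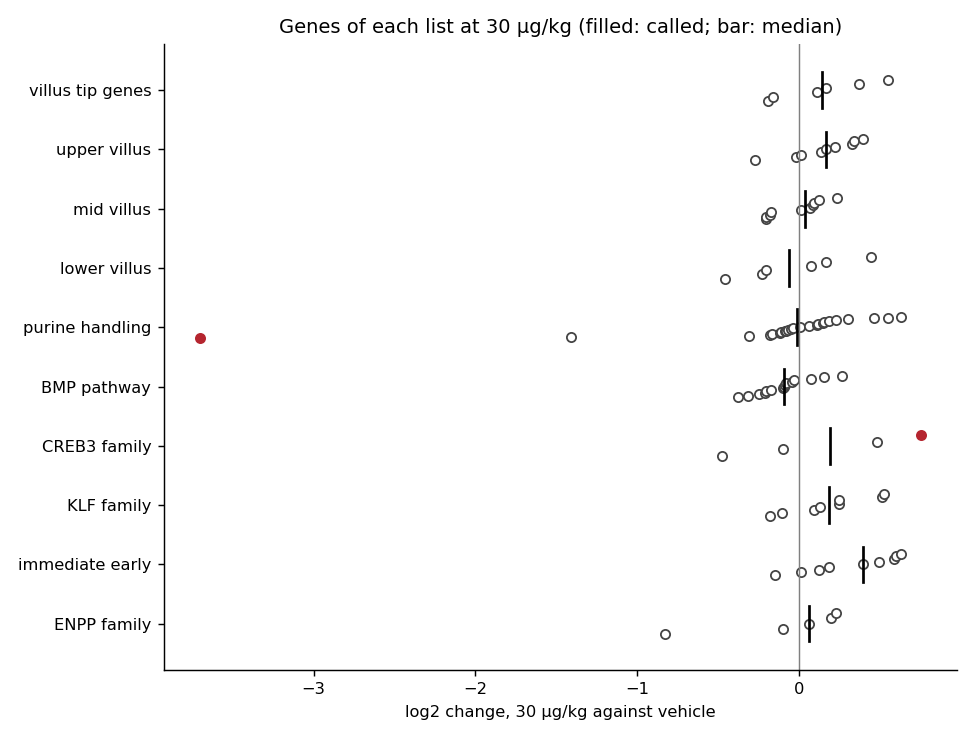
The log2 change at 30 µg/kg against vehicle (horizontal axis) of every tested gene in the villus, purine handling, BMP pathway, gene family and immediate early lists (rows), with called genes filled and the median of each list as a bar. The villus tip genes lie between -0.19 and 0.55, and the called genes in the other lists drawn are Akp3 at -3.70 and Creb3l1 at 0.76.

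Levels of several villus tip genes moved with the clock score inside each dose. In all 4 doses, the libraries with a score above 0 had more Creb3l3, more Nt5e and more Enpp3 than those below 0. For Creb3l3 the separation held across doses as well, at 476 to 608 CPM in the 6 libraries above 0 and 317 to 398 CPM in the 6 below. For Nt5e the ranges were 83.4 to 178 CPM and 53.2 to 103 CPM, and for Enpp3 644 to 1039.8 CPM and 539 to 855 CPM, so both overlapped across doses. Slc28a2 was ordered in the same way in 3 of 4 doses, Ada in 2 of 4 and Klf4 in 0 of 4. For these orderings, and for that of Slc2a5 below, the share of all genes was not counted. They are therefore descriptions only.

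The coefficient of the score, as a continuous covariate beside the 4 dose groups in edgeR, was examined after these values were seen. Its adjusted p was under 0.05 for 3 of 6 villus tip genes and for 10.9% of all genes tested. Over the whole range of the score, the fitted log2 change was 0.65 ± 0.097 (SE) for Creb3l3, with an adjusted p of 4.7e-04. It was 0.89 ± 0.26 for Nt5e, with an adjusted p of 0.0391, and 0.38 ± 0.10 for Enpp3, with an adjusted p of 0.0312. Slc28a2 at 0.39 ± 0.15, Ada at 0.074 ± 0.15 and Klf4 at -0.27 ± 0.10 did not pass, with adjusted p of 0.132, 0.827 and 0.112. Of the 14 alternatives run for this coefficient, Creb3l3 passed in 14, Enpp3 in 8 and Nt5e in 7. Without the 3 µg/kg libraries, 1 of 6 passed, Creb3l3. The score comes from the same libraries as the genes, and no time of day is tied to a single library beyond the harvest window of the study, the first 3 h of the light phase, so what sets the score was not tested.

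Genes of the middle villus also moved with the score. Of the 10, 8 had a higher level at a higher score with an adjusted p under 0.05, and their median coefficient was 0.13 per unit of the score, against 0.062 for the villus tip genes and -0.0025 for all genes. Slc2a5, the fructose transporter, was 228 to 291 CPM in the libraries above 0 and 86.1 to 145 CPM in those below. Of the 9 further upper villus genes, 1 was higher with the score, the myelin protein gene Pmp22, and 1 was lower, S100a10, which encodes a partner of annexin A2. Of 6 genes of the villus base, 0 passed in edgeR. No list was compared with another by a test.

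**Figure D4:**
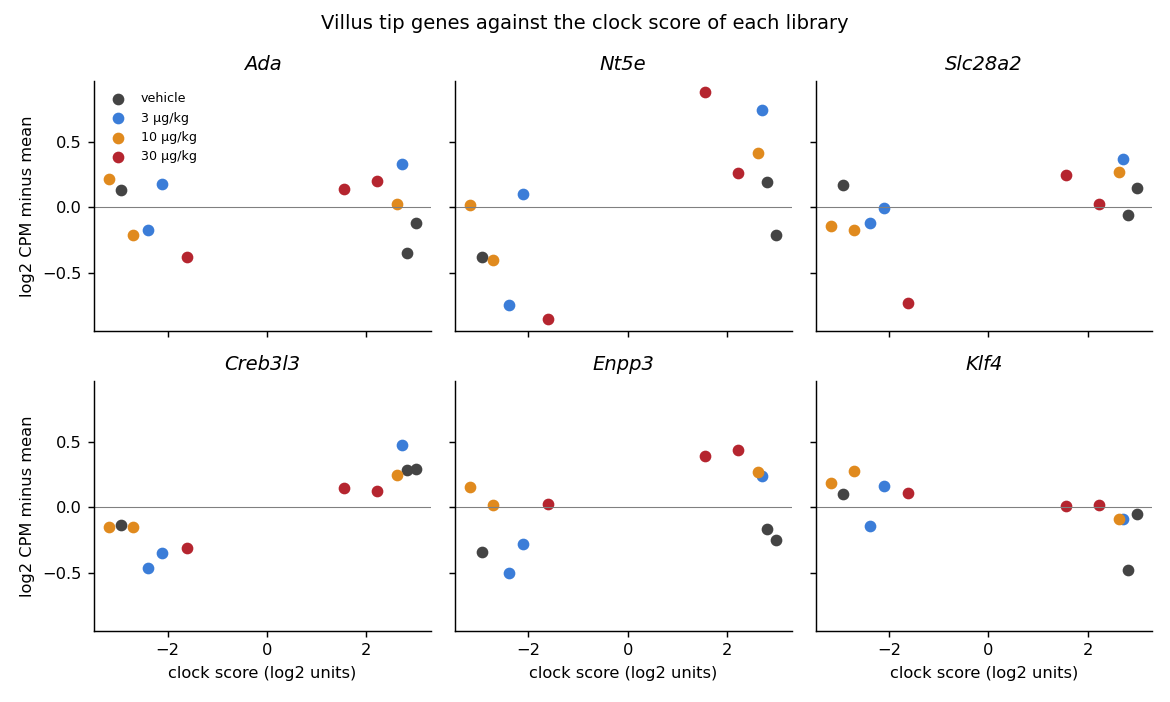
Log2 CPM of each villus tip gene minus its mean over 12 libraries (vertical axis) against the clock score of the library in log2 units (horizontal axis), with colours for dose. The libraries sit in 2 clusters of 6, and only for Creb3l3 do the clusters not overlap.

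**Figure D5:**
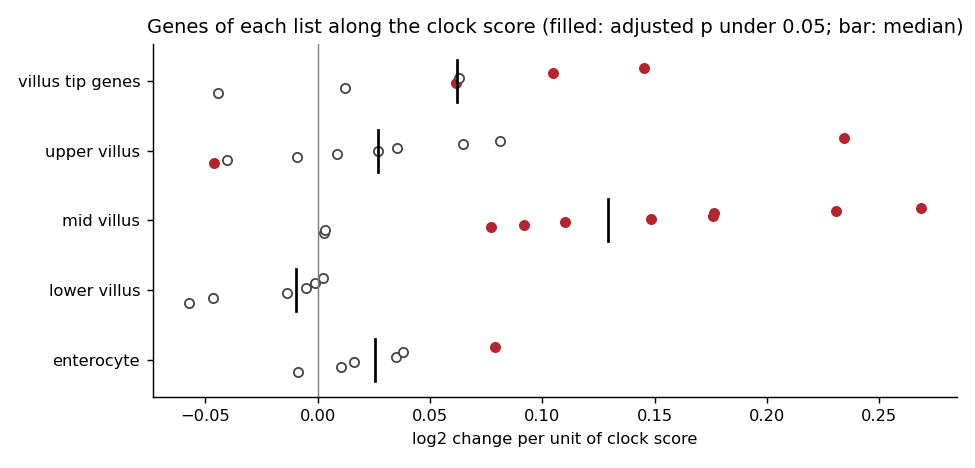
Coefficient of the clock score (log2 change per unit, horizontal axis) for the villus tip genes and for 4 lists of epithelial genes (rows), with genes at an adjusted p under 0.05 filled and the median of each list as a bar. Filled points are 3 of 6 villus tip genes, 8 of 10 genes of the middle villus, 2 of 9 of the upper villus, 0 of 6 of the villus base and 1 of 6 enterocyte markers.

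Pairs of villus tip genes were alike to very different degrees over the 12 libraries. The Pearson r of log2 CPM was highest for Nt5e with Slc28a2, at 0.74 (Spearman rho 0.76), and for Nt5e with Creb3l3, at 0.72 (rho 0.64). Nt5e and Ada, which act one after the other on adenosine, had an r of 0.63 (rho 0.61). Klf4 stood apart, with r between -0.49 for Creb3l3 and 0.30 for Ada. Among 11195 genes with a mean of at least 50 counts, the levels most like Creb3l3 were those of Pcsk5, a proprotein convertase, at r = 0.98, and Myo18a at 0.97. For Enpp3 they were Aldh9a1 at 0.94 and Atp2a3, a calcium pump, at 0.92. For Nt5e they were Tmem139 at 0.93 and Ndfip2 at 0.91, and for Ada Zmynd11 at 0.87 and Slc23a4 at 0.86. For Klf4 they were Foxo6 at 0.89 and Tnfaip8l3 at 0.87. For Slc28a2 they were Bambi-ps1 and Gm14085, both at 0.89, the latter being the gene that shares sequence with it. These correlations describe 12 libraries that share doses, depth and the clusters of the clock score, and carry no test.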

How the data were processed

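RNA sequencing was analysed in 12 libraries, 3 in each of 4 groups. Each deposited file holds 1 library as unnormalised counts of reads for Ensembl genes, which the authors made with HTSeq. Per the submitters' processing notes, the tools were FastQC 0.11.3, Trimmomatic 0.33, TopHat2 2.1.0, SAMtools 1.2.0, HTSeq 0.6.1 and DESeq, with the build GRCm38. The annotation release and the strand setting are not given in the sources used here. Reads that matched no gene (25.0% to 30.1%) or aligned to more than 1 place (31.4% to 38.8%) stood in separate entries and entered neither library sizes nor tests. GENCODE M21 named 45229 of 46078 genes, and the unmatched genes held 0.749% of counts.

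Counts were fitted with edgeR 4.0.16 in R 4.3.3 (TMM scaling, filterByExpr, 1 quasi-likelihood model of 4 groups), with Benjamini-Hochberg adjustment over 15823 genes. CPM used TMM library sizes, and log2 CPM a prior count of 2. Standard errors and 95% intervals were derived from the F statistic. A gene was called at an adjusted p under 0.05 and at least 1.5-fold, and for any difference and the clock score at the adjusted p alone. The trend was the slope over dose rank 0 to 3, given over the range. The alternatives were scaling by median-of-ratios, by upper quartile or by TMM after removal of genes over 1% of a library, no filter, DESeq2 1.42.0, the compared groups alone, library index or clock score as a covariate, the Jonckheere-Terpstra test over 369600 arrangements, and each library left out. 2 settings were added after seeing the data, the 3 µg/kg group left out and the test of the clock coefficient.

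By rule, the genes named are the 6 villus tip genes, list genes called at any dose against vehicle and the 2 genes most like each member. Slc10a2, Slc51a, Cpa3, Fcer1a, Ms4a2, Mcpt1, Mcpt2, Krt20, Apoa4, Alpi, Adora2b, Nlrp6, Klf5, Fgf21, Apoa5, Slc2a5, Pmp22 and S100a10 fall outside it and were chosen after their values were seen. The lists were upper, mid and lower villus, purine handling, BMP pathway, CREB3, KLF and ENPP families, CREB-H targets, immediate early genes, AhR targets, clock genes and markers of enterocytes, ileum, goblet, Paneth, crypt, T, B and plasma, mast and basophil, fibroblast, smooth muscle and endothelial cells. The members and lists were chosen with earlier results of these data known. The fit was tested on simulated data of 13791 genes for 30 µg/kg against vehicle, where 60% of genes raised by 1 on the log2 scale were called. Replicates of a group differed beyond sampling noise. Intervals carry the spread between libraries, while floors of counts cover counting error only.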

Additional observations from a re-analysis of the deposited data

How the results depend on the processing

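No paired analysis was possible because the labels give the libraries no replicate numbers, so no number ties a library of 1 group to a library of another. The count of villus tip genes called stayed at 0 for all comparisons of 2 groups under every alternative. For the dose trend it became 1, Enpp3, with the clock score as a covariate and with no filter on low counts, and 0 to 1 when each library was left out. It was 1 without replicate 1 of 3 µg/kg, where the edgeR adjusted p was 0.0262, and without replicate 3 of 30 µg/kg, where it was 0.0475. For any difference it became 1 with the same covariate and with no filter, and 0 to 1 with libraries left out, 1 being without replicate 1 of 3 µg/kg. The edgeR and DESeq2 adjusted p of Enpp3 at 30 µg/kg ranged from 0.0073 to 0.213 over 21 alternatives, and that of its trend from 0.0067 to 0.187, including the exact test. In DESeq2 the change of Enpp3 at 30 µg/kg was 0.54 ± 0.18 (SE) on the log2 scale with an adjusted p of 0.0333, under 1.5-fold. The count for the clock score, 3, became 1 without the 3 µg/kg group and was 1 to 4 with libraries left out. It was 1 without replicate 1 or 3 of 3 µg/kg, replicate 2 of 10 µg/kg or replicate 3 of 30 µg/kg.

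Signs turned only for changes within their error. The log2 change of Slc28a2 at 3 µg/kg was -0.0043 in DESeq2, -0.0079 with the library index, -0.0062 with median-of-ratios scaling, -0.014 with no filter and -0.029 with upper-quartile scaling. With the clock score as a covariate, at 10 µg/kg, Slc28a2 was at 0.0053 and Creb3l3 at 0.047, and without the 3 µg/kg group the clock coefficient of Ada was -0.0063. With each library left out in turn, the log2 change at 3 µg/kg was -0.16 to 0.57 for Nt5e, -0.16 to 0.099 for Slc28a2, -0.15 to 0.25 for Enpp3 and -0.059 to 0.22 for Klf4. At 10 µg/kg it was -0.067 to 0.35 for Nt5e, and at 30 µg/kg -0.074 to 0.71 for Nt5e and -0.39 to 0.046 for Slc28a2. Over the dose rank it was -0.0399 to 0.21 for Ada and -0.047 to 0.58 for Nt5e, and the clock coefficient of Ada was -0.006 to 0.0504. The cause of these shifts was not tested.

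The labels give no batch dates, so dose and a batch aligned with it cannot be told apart.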
